A study of Mus musculus with 10 samples.

Results

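The genes that mark the mature cell types of the colonic epithelium were examined for binding of the aryl hydrocarbon receptor (AHR). The set held 10 genes from 3 lineages, 5 of absorptive colonocytes (Slc26a3, Car1, Car4, Krt20 and Aqp8), 3 of goblet cells (Muc2, Tff3 and Spdef) and 2 of enteroendocrine cells (Chga and Neurod1). A peak was counted for a gene when it overlapped the gene body or the 10 kb on either side in GENCODE release M21 (mouse genome mm10, the same sequence as GRCm38). By this rule 19 of the 123652 wild type peaks and 0 of the 1931 AHR KO peaks belonged to the set. All organoids, which are epithelial cultures grown from crypts of the mouse colon, were kept in WENR medium and given 5 nM FICZ, a high-affinity AHR ligand, for 1 h before chromatin immunoprecipitation with an antibody to AHR. The groups were 4 wild type AHR ChIP libraries with 4 input libraries made without antibody, and 1 AHR ChIP library with 1 input library from AHR KO organoids. The knockout came from Villin-Cre Ahr fl/fl mice, in which the Villin promoter drives Cre in intestinal epithelial cells, so that Ahr is deleted there. The 4 wild type cultures were called as a single peak list, hence no value per culture was analysed here and the genotypes could not be compared over replicates. Peak lists hold no expression values, and expression was not analysed here, so the labelled tissue was not checked against its markers.

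Stem cells at the crypt base feed the colonic epithelium, and their daughters become either absorptive colonocytes or secretory cells as they leave the niche. WENR medium, which supplies Wnt ligand, holds organoids in a stem-like state in which mature cell types are few. The core GCGTG, most often as the longer word TNGCGTG (N is any base), is recognised by the transcription factor AHR paired with ARNT. Ligand binding brings AHR into the nucleus. Colonocytes exchange chloride and bicarbonate and take up water, goblet cells secrete the mucus layer, and enteroendocrine cells release peptide hormones and serotonin.

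The sequences below show what lay under the peaks of each lineage, with the best peak of a textbook AHR target, Cyp1a1 (a cytochrome P450 that metabolises AHR ligands), for comparison. They are from the plus strand of GRCm38, 5′ to 3′, and a peak longer than 300 bp is given by the 200 bp around its midpoint. In the first 4, capitals mark unbroken runs of CA or TG of at least 6 units. In the next, capitals mark the core GCGTG or its reverse complement CACGC. The 2 after that have no capitals, since the peak beyond the 3′ end of Krt20 is made of pyrimidines and the one upstream of Car1, although soft-masked throughout, has no CA run. In the last 2, from Cyp1a1 and from the region upstream of Aqp8, capitals mark TNGCGTG or its reverse complement CACGCNA.
Car1 chr3:14784621-14784820: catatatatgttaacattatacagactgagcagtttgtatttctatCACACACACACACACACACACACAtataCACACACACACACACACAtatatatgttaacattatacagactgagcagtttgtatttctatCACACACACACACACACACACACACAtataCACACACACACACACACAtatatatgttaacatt
Muc2 chr7:141759368-141759580: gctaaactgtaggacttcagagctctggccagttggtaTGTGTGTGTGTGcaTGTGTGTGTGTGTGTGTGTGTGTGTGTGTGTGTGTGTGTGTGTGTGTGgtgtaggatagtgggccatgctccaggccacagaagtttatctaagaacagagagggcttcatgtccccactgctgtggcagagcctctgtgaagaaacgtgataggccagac
Spdef chr17:27727787-27727966: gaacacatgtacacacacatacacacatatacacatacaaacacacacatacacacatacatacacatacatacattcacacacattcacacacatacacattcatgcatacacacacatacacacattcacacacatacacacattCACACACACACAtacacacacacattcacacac
Neurod1 chr2:79442558-79442795: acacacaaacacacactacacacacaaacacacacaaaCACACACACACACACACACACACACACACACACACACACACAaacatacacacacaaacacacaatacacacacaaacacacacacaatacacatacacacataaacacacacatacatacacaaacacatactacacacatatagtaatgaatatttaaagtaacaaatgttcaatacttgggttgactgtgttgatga
Slc26a3 chr12:31399500-31399698: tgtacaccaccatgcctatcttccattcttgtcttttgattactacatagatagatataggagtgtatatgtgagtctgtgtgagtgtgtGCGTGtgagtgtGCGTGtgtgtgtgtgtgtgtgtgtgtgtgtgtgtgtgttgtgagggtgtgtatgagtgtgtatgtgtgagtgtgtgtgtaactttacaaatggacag
Krt20 chr11:99427205-99427389: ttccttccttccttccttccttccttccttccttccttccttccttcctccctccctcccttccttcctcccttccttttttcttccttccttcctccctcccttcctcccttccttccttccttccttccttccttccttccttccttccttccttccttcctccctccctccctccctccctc
Car1 chr3:14810266-14810490: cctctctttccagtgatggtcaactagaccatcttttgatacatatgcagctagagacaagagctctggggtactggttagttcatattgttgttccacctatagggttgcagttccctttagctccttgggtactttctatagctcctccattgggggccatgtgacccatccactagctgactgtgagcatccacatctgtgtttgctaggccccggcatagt
Cyp1a1 chr9:57696569-57696768: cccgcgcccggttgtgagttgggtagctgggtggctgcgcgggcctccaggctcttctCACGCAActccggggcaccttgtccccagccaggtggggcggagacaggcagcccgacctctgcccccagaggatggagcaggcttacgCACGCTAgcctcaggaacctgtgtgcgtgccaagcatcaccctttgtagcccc
Aqp8 chr7:123461564-123461801: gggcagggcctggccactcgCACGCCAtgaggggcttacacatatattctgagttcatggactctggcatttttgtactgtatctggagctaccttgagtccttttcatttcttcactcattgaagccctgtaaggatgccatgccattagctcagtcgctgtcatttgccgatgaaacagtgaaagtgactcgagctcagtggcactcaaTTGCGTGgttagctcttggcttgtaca
The first 4 windows were rich in CA or TG, in unbroken runs at Car1, Muc2 and Neurod1 and in short, interrupted ones of at most 12 bp at Spdef, and the 2 cores of the Slc26a3 peak sat in or beside such a run. The Cyp1a1 window held the full AHR word outside any repeat. The Aqp8 stretch held 2 such words and no peak. The other Cyp1a1 peaks by the same rule, of scores 7.62 and 5.65, held CA or TG runs of 30 and 42 bp and no TNGCGTG.

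Of the 10 genes, 8 had a wild type peak (4 of 5 colonocyte, 3 of 3 goblet and 1 of 2 enteroendocrine genes), and Aqp8 and Chga had none. Among all 21938 protein-coding genes, 78.3% had a wild type peak by the same rule, a share close to that of the set. An AHR KO peak was found at 0 of the 10, which allows a share of up to 30%, against 4.47% of protein-coding genes. With 2 kb in place of 10 kb on either side, 5 of the 10 had a wild type peak, against 57.4% of protein-coding genes. With 50 kb all 10 had a wild type peak, against 97.6%, and 3 had an AHR KO peak, against 10.5%. A wild type peak under 50% soft-masked was found at 1 of the 10 (Muc2), against 29.5%. The share of genes with a peak rose with the length of the window. When all genes were split into 5 classes of equal number by window length, 59.1% had a peak in the shortest class (20.1 to 25.3 kb), which includes Tff3 and Neurod1, against 97.4% in the longest, which includes Slc26a3 and Muc2. Aqp8 and Chga belonged to the next-shortest class, where 69.0% of genes had one. Per 100 kb of window the set held 4.26 wild type peaks, against 4.53 over all protein-coding windows and 4.66 over the assembled chromosomes. The density was 5.22 peaks per 100 kb at colonocyte genes (13 peaks), 3.49 at goblet genes (5 peaks) and 1.84 at enteroendocrine genes (1 peak). At the further differentiation genes described last, it was 5.66, 5.40 and 5.22 in the same order of lineages. With so few peaks the 3 lineages were not compared by a test.

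**Figure D1:**
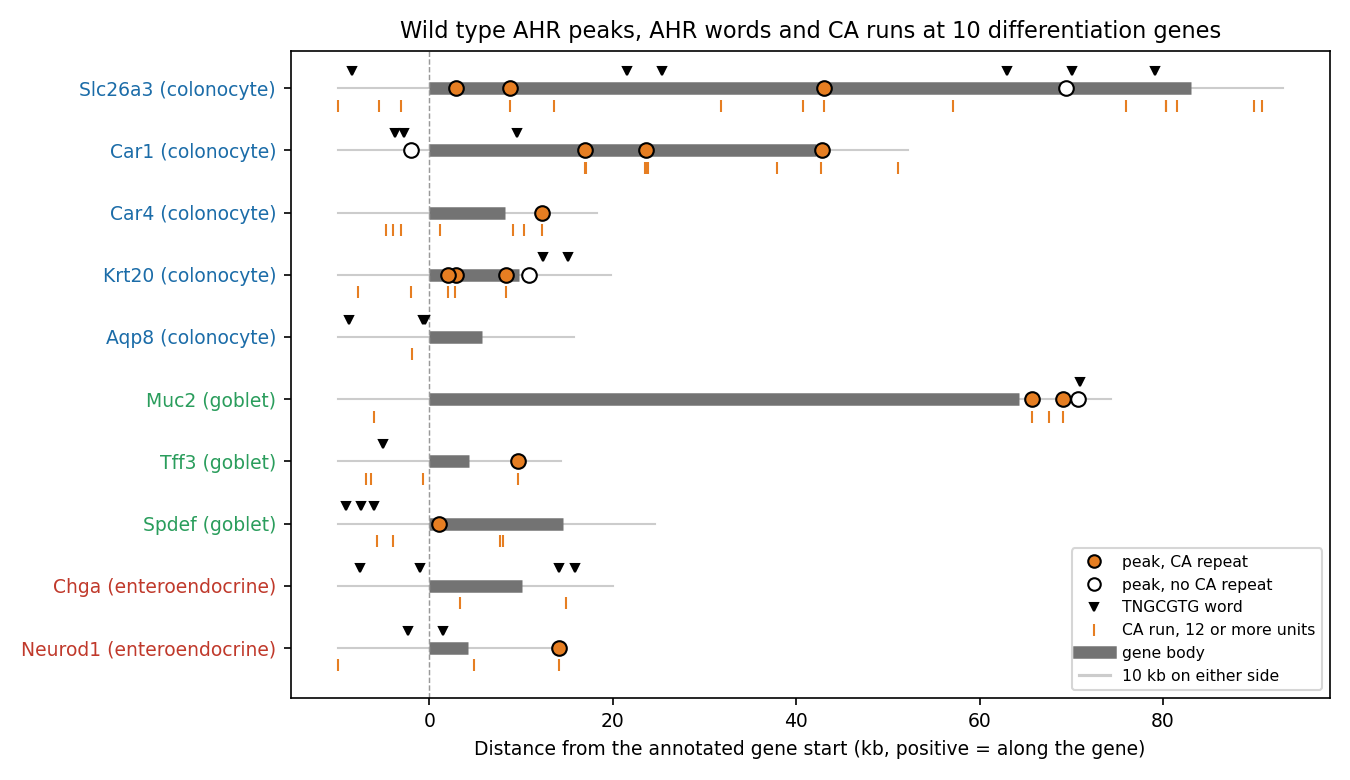
Wild type peaks (circles), TNGCGTG words (triangles) and CA or TG runs of at least 12 units (orange ticks) by distance from each gene's annotated start in kb, with the gene body in dark grey and 10 kb on either side in light grey. All 25 TNGCGTG words lie outside the 19 peaks, and Aqp8 and Chga have no circle.

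The score deposited with each peak is a fold enrichment, the ChIP pileup plus 1 over the expected background plus 1. The 19 peaks had a median score of 5.65 (range 3.90 to 6.98, SD 0.833, n = 19 peaks), against a median of 5.32 over the whole wild type list (quartiles 4.53 and 5.98). None was in the top 10% of wild type scores (above 7.14). Thus 0 of the 10 genes had a peak of that height, which allows a share of up to 30%, against 22.9% of protein-coding genes, so a difference was not detectable with 10 genes. The score of 6 of the 19 was below the list median. Of the 19, 12 lay on the genome-wide background, and their pileups were 14 to 20 fragments with a median of 16, the same median as over all such wild type peaks. Median peak width was 225 bp, against 227 bp in the whole list.

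**Figure D2:**
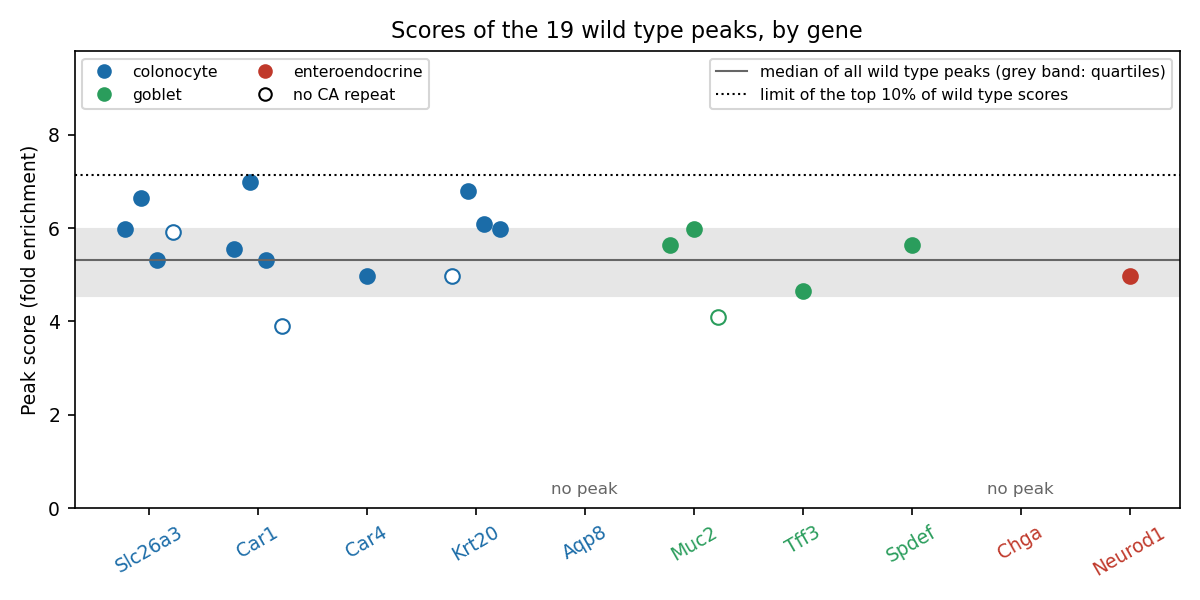
Score (fold enrichment, linear axis) of each of the 19 peaks by gene, coloured by lineage, with open circles for peaks without a CA repeat, the median (line) and quartiles (grey band) of all wild type peaks and the limit of the top 10% (dotted). Scores run from 3.90 to 6.98, all below the dotted line at 7.14.

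Slc26a3, the chloride and bicarbonate exchanger of surface colonocytes (chr12:31390871-31473917, plus strand), held 4 peaks, all in introns. They lay 2906, 8728, 43067 and 69446 bp past the annotated start, with scores of 5.98, 6.65, 5.32 and 5.92. The peak of score 6.65 (chr12:31399500-31399698) was the one with 2 GCGTG cores, both in a TG-rich stretch. RefSeq gives this gene a start further into the GENCODE gene. From that start the 4 peaks lay, in the same order, at −44442, −38620, −4281 (chr12:31433848-31434027) and 22098 bp. The last one (chr12:31460192-31460441) had no CA repeat, held an unbroken run of C and T of 119 bp, and had as its nearest protein-coding start that of Cbll1, an E3 ubiquitin ligase gene.

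Car1, a cytosolic carbonic anhydrase that forms bicarbonate in colonocytes (chr3:14766216-14808368, minus strand), also had 4. The highest score of the whole set, 6.98, belonged to its intronic peak at chr3:14784524-14784917, 23647 bp into the gene, at the 88.5th percentile of wild type scores. The full peak held 2 GCGTG cores, both outside the 200 bp printed above. A second intronic peak (chr3:14791232-14791485, score 5.32) held 1 GCGTG in a stretch where a CA run passes into CG and back. The peak of score 5.56 lay 632 bp past the 3′ end of the gene at chr3:14765459-14765709. The lowest score of the set, 3.90, was at chr3:14810266-14810490, at −2010 bp from the start, where the window was soft-masked throughout and had no CA repeat.

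Car4, the membrane-bound carbonic anhydrase of the colonocyte brush border (chr11:84957786-84966044, plus strand), had 1 peak of score 4.98, 4024 bp past its 3′ end. Krt20, the keratin of differentiated surface cells (chr11:99428403-99438150, minus strand), had 4 in the smallest space, 13.4 per 100 kb of window. Its intronic peaks at 2003, 2934 and 8310 bp from the start scored 5.98, 6.08 and 6.80. The fourth, of score 4.98, lay 1106 bp past the 3′ end on the pyrimidine repeat printed above. For that peak and for the one of score 6.80 the nearest protein-coding start was that of Krt12, a keratin of the cornea, and not of Krt20. Aqp8, a water channel of colonocytes (chr7:123462291-123468004, plus strand), had its nearest wild type peak 13714 bp upstream of the gene (score 6.45), outside the window.

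At the goblet genes, Muc2, which encodes the gel-forming mucin of colonic mucus (chr7:141690340-141754693, plus strand), had no peak in its 64.4 kb body. Its 3 peaks followed the 3′ end by 1384, 4781 and 6391 bp, with scores of 5.65, 5.98 and 4.10, and their nearest protein-coding start was that of Muc5ac, a gastric mucin gene next to it. The middle one, printed above, was the only peak of the set less than 50% soft-masked (40% of its window). The last one held a pyrimidine run and no CA repeat. In the Muc2 body, no GCGTG core and no CA or TG run of at least 12 units lay between chr7:141701637 and chr7:141746100. Whether that stretch holds known sequence was not checked. Tff3, a small secreted peptide of mucosal repair (chr17:31125306-31129646, minus strand), had 1 peak of score 4.65 located 5294 bp past its 3′ end. Spdef, an ETS factor that drives goblet cell maturation (chr17:27714352-27728955, minus strand), had the peak nearest to a gene start of the whole set, in its intron at 1078 bp (chr17:27727787-27727966, score 5.65), on a CA-rich repeat.

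Of the enteroendocrine genes, Neurod1, a transcription factor of the endocrine lineage (chr2:79452521-79456751, minus strand), had 1 peak of score 4.98 at chr2:79442558-79442795. It lay 14074 bp from the start, past the 3′ end and inside an intron of Cerkl, a ceramide kinase-like gene whose body spans the locus, and 9726 bp from the gene at its nearer edge, just inside the 10 kb limit. The next peak outward, 10580 bp away, had a score of 3.85 and fell outside it. Chga, chromogranin A of secretory granules (chr12:102554969-102565028, plus strand), had its nearest wild type peak 24309 bp away, with a score of 3.66.

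In position, 11 of the 19 peaks were intronic (57.9%, exact 95% binomial interval 33.5 to 79.7%) and 8 intergenic (42.1%, 20.3 to 66.5%), against 74.0% and 19.4% of the 58845 wild type peaks in protein-coding windows. None lay in an exon or a promoter (1 kb upstream to 100 bp downstream of any annotated start), which allows a share of up to 15.8%, against 6.63% in protein-coding windows and 6 of the 65 peaks at the further differentiation genes described last. For exons and promoters a difference from these shares was not detectable with 19 peaks. Of the 19, 10 were in the body of the member gene, 8 downstream and 1 upstream, against 68.1%, 15.1% and 16.8% when each wild type peak was paired with each protein-coding gene whose window held it. The intervals of the downstream share (8 of 19, 20.3 to 66.5%) and of the equal intergenic share lay above the background shares. The 3 Muc2 peaks belong to both counts, and without them each was 5 of 16 (31.3%, 11.0 to 58.7%), an interval that holds the background. The 10 kb past the 3′ end made up 22.4% of the windows of the set by length and 14.5% of all protein-coding windows, and its part in the count was not tested. By gene, 4 of the 10 had a peak in the body, against 49.7% of protein-coding genes. Within 2 kb of the GENCODE gene start lay the Spdef peak alone (5.09% of all pairs), and 5 of the 19 were within 5 kb of that start (14.1%). For 13 of the 19 the member's own start was the nearest protein-coding one (66.8%). Peaks of the same gene share a locus and are not independent observations.

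By repeat content, the 200 bp around each peak midpoint counted as a CA repeat if CACACA or TGTGTG was present in 3 or more non-overlapping places. This was so for 15 of the 19 peaks, 78.9% (exact 95% binomial interval 54.4 to 93.9%), against 57.3% of all wild type peaks and 2.76% of windows 2 kb from them. The interval includes the share of all wild type peaks. Those without it were the last Slc26a3 peak, the upstream Car1 peak, the downstream Krt20 peak and the last Muc2 peak. Of these 4, all but the Car1 peak held an unbroken pyrimidine or purine run of at least 40 bp, a feature counted after the sequences had been read, against 30.5% of wild type windows without a CA repeat. Over all windows it was in 4 of the 19 and in 21.05% of the whole list, the same share. A CA repeat or such a run was found in 18 of the 19 windows (94.7%, 74.0 to 99.9%), against 4.38% of flank windows. The share was 70.3% of all wild type windows and 74.5% of those in protein-coding windows, the latter inside the interval. Since the run was picked from these same sequences, this count was not tested. The 15 peaks with a CA repeat had a median score of 5.65, and the 4 without it 4.54; over the whole list the medians were 5.65 and 4.65. Soft-masked bases, which the assembly marks as repeats, made up at least 50% of 18 of the 19 windows, 94.7% (74.0 to 99.9%), against 86.0% of all wild type peaks and 27.4% of flank windows. The treatment of reads with several matches in the genome is not given in the sources used here, and the part that repeats play in these peaks was not tested.

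**Figure D3:**
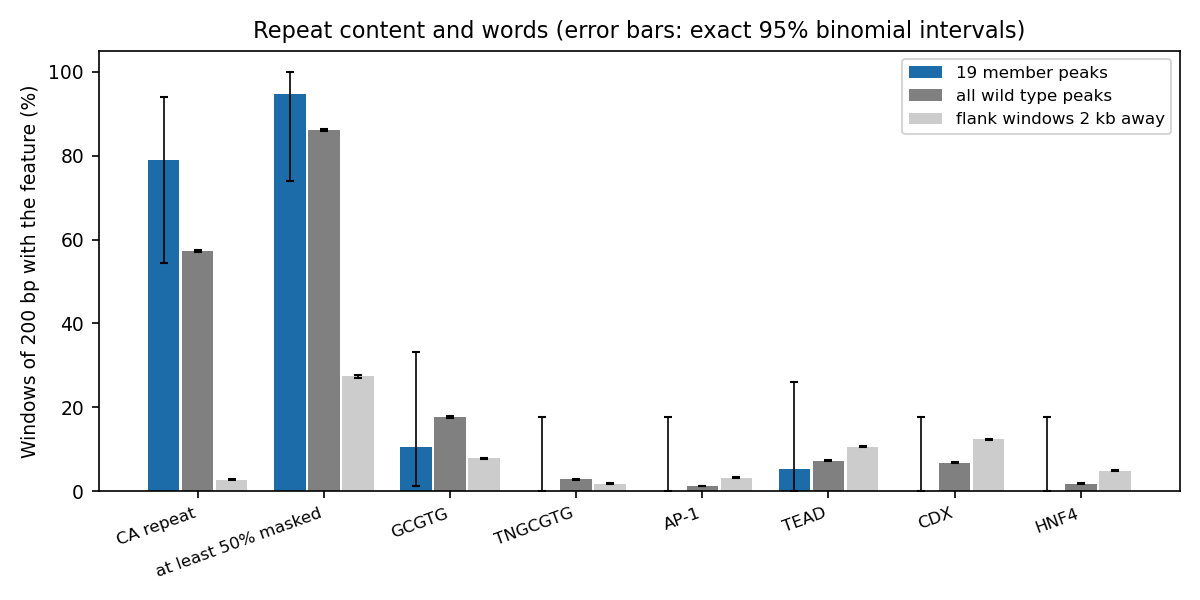
Percentage of 200 bp windows with each repeat feature or word in the 19 member peaks (blue), all wild type peaks (grey) and flank windows 2 kb away (light grey), with exact 95% binomial intervals as error bars. CA repeats were in 78.9%, 57.3% and 2.76% of the windows, and no member window held TNGCGTG.

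The AHR word was then counted on both strands. TNGCGTG, which contains the core, was in 0 of the 19 windows, which allows a share of up to 15.8%, against 2.84% of all wild type peaks and 1.83% of flank windows. The limit for the set lies above both shares, so a difference from them was not detectable with 19 windows. The core GCGTG was in 2 of the 19 windows (10.5%, 1.30 to 33.1%), against 17.7% and 7.83%, and those 2 were the Slc26a3 and Car1 peaks named above. Over the full length of the peaks it was in 3 of 19, against 21.3% of all wild type peaks. Of words for other factors, TEAD (GGAATG) was in 1 window, at the Krt20 peak 2003 bp from the start, against 7.24% of all wild type peaks. AP-1 (TGACTCA or TGAGTCA), CDX (TTTATNG) and HNF4 (CAAAGNNCA) were in none, against 1.28%, 6.79% and 1.83%. These words are matches of letters only.

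The reverse count asked how many words in the 10 windows lay under a peak. TNGCGTG occurred 25 times, at every gene but Car4, and 0 of the 25 were in a wild type peak, which allows a share of up to 12%, against 2.13% of the 99434 in protein-coding windows. Slc26a3 had 6 of them, Chga 4, and Car1, Aqp8 and Spdef 3 each. Of the 25, 4 lay within 2 kb of a gene start, at −704 and −513 bp from the Aqp8 start, −1020 bp from the Chga start and 1512 bp from the Neurod1 start. The word closest to a peak was at Muc2, 152 bp from the peak of score 4.10. At Cyp1a1, whose best peak scored 17.97, 4 of 8 such words lay under a peak. The core GCGTG occurred 207 times and 5 of these were under a peak, 3 at Car1 and 2 at Slc26a3, which is 2.42% (0.789 to 5.55%) against 4.41% in protein-coding windows.

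Unbroken CA or TG runs of at least 12 units were found 54 times in the 10 windows and 17 lay under a peak, 31.5% (19.5 to 45.6%), against 32.6% of the 120528 in protein-coding windows. Runs of 20 or more units were covered more often in the background (40.2%) than runs of 12 to 19 (27.2%), and in the set the counts were 10 of 28 and 7 of 26. Car1 had 7 of its 9 runs under a peak and Krt20 3 of 5, whereas Slc26a3 had 2 of 15 and Car4 1 of 7. Spdef (4 runs), Chga (2) and Aqp8 (1) had none covered. By lineage, 13 of 37 runs were covered at colonocyte genes (35.1%), 3 of 12 at goblet genes (25%) and 1 of 5 at enteroendocrine genes (20%, at Neurod1).

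**Figure D4:**
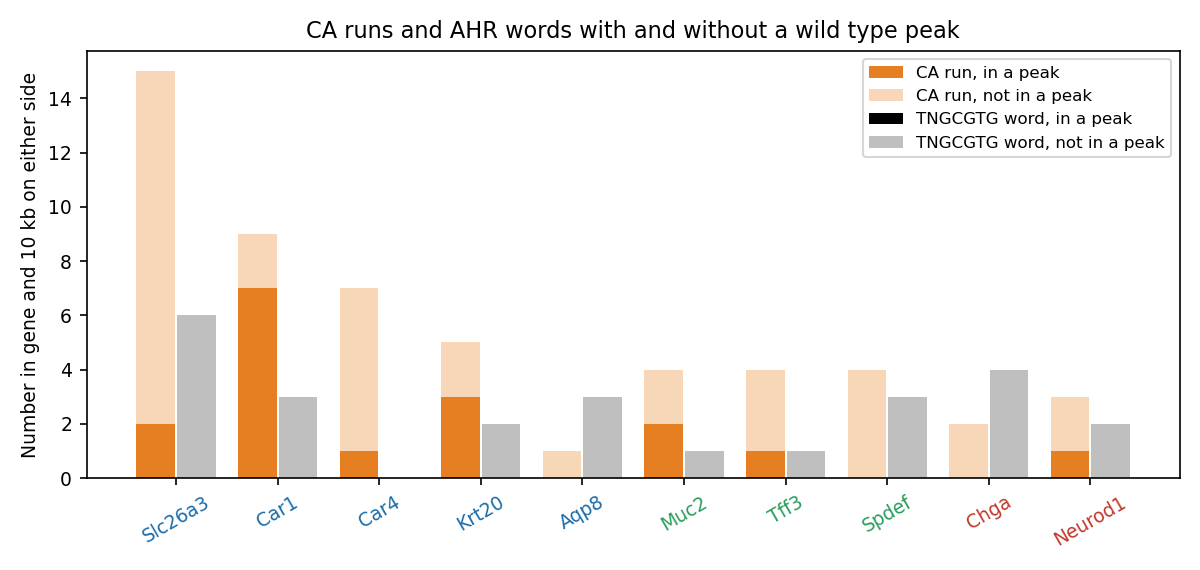
Number of CA or TG runs of at least 12 units (orange) and of TNGCGTG words (grey) in each gene and 10 kb on either side, with the part under a wild type peak in the darker shade. Of the runs 17 of 54 were under a peak, and of the words 0 of 25.

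RefSeq promoters of GRCm38, taken from 250 bp upstream to 50 bp downstream of the start, were matched for 8 of the 10 genes. Of 32851 RefSeq promoters 0.962% overlapped a wild type peak and 5.07% held TNGCGTG. Both counts were 0 of the 8 for the set, which allows a share of up to 37.5%, so a difference was not detectable. The core GCGTG was in 4 of the 8 (4 times in Chga, 2 in Neurod1 and once each in Aqp8 and Spdef), against 32.4%. The TEAD word was in 3 of the 8 (3 times in Krt20 and once each in Aqp8 and Spdef), against 14.7%. The CDX word was in 3 of the 8 (Car4, Krt20 and Aqp8), against 10.9%, the HNF4 word in 1 (Slc26a3), against 6.36%, and the AP-1 word in 0, against 5.202%. With only 8 promoters, none of these differences was tested.

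The AHR KO list had no peak in any of the 10 windows. The nearest one was 12988 bp from Muc2 and the farthest 1044278 bp from Car1, with a median distance of 226042 bp. The lists differ in depth. From the steps between scores the background was 11.2 fragments per kb in the wild type list and 1.17 in the AHR KO list. A score of 6.98, the highest of the set, would need a pileup of 7.98 fragments over the background of the AHR KO list, where the lowest pileup called was 5. Scores were not compared between the lists, and genotype and depth cannot be told apart.

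Of 30 further differentiation genes, 25 had a wild type peak, against 78.3% of protein-coding genes, with 65 peaks in all (5.43 per 100 kb): 7 of 10 colonocyte, 10 of 10 goblet and 8 of 10 enteroendocrine genes. Those without were Slc26a2, Guca2a, Ceacam20, Neurog3 and Pax6. Of the 30, 7 had a peak in the top 10% of scores, against 22.9% of all protein-coding genes; the difference from the 0 of the 10 genes was not tested. Among colonocyte genes the highest were at Car2, a carbonic anhydrase gene in the same cluster as Car1 (15.1, at −5139 bp from its start), at Fabp2, a fatty acid binding protein (11.2), and at Guca2b, which encodes uroguanylin (10.2). The highest goblet scores were 8.64 at Creb3l1, 6.98 at Agr2 and 5.98 at Fcgbp, and the highest enteroendocrine ones 9.21 at Isl1, a LIM-homeodomain factor, in its intron 464 bp from the start, 6.90 at Tph1, the enzyme of serotonin synthesis, and 6.58 at Nkx2-2. In the AHR KO list 1 of the 30 had a peak, against 4.47% of protein-coding genes. It was Vil1, whose promoter drives the Cre of the knockout. That peak lay in the gene 2366 bp from the start and overlapped a wild type intronic peak of score 5.65, whereas the wild type promoter peak of Vil1 (score 7.83) overlapped no AHR KO peak. TNGCGTG was in 4 of the 65 windows and a CA repeat in 58.5%, against 2.84% and 57.3% of all wild type peaks.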

How the data were processed

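AHR ChIP and input libraries were sequenced single-end, aligned to mm10 with BWA (0.7.15), marked for duplicates with Picard (2.1.1) and called with MACS2 (2.1.1) by the authors; HOMER (4.8) is also named in the submitters' notes. The deposited lists hold a position and, as a ratio, a fold enrichment score per peak, pooled over the 4 wild type cultures or from 1 AHR KO library; the score's meaning was read from its values. Read totals per library were not analysed here. Starts were taken as counted from 0 and printed with 1 added. Overlap was counted from 1 bp, and sequence features in the 200 bp around peak midpoints. Members, lists and named genes (all 10 genes with every peak, their neighbours, and of the other 30 those without a peak, with an AHR KO peak or among the 3 highest of a lineage) were chosen with earlier results of these data known. Runs of pyrimidines were counted after the sequences had been seen. No test was made, since neither list has replicates. Intervals are exact binomial (Clopper-Pearson) and cover counting error only, as does the limit of 3 counts given beside a 0. Scripts (Python 3.11.15, numpy 2.4.6, pandas 2.3.3, scipy 1.17.1, matplotlib 3.10.9) were tested on simulated data. Alternatives were windows of 2 and 50 kb, the gene body alone, the peak midpoint, the top 10% of scores, peaks under 50% soft-masked, other repeat limits and whole peaks.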

Additional observations from a re-analysis of the deposited data

How the results depend on the processing

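The 8 genes with a wild type peak (78.3% of all protein-coding genes) became 5 with 2 kb on either side (57.4%), 4 with the gene body alone (49.7%), 0 with the top 10% of scores (22.9%) and 1 with peaks under 50% soft-masked (29.5%). Their 19 peaks became 58 with 50 kb on either side, 10 in the gene body, 0 in the top 10% and 1 under 50% soft-masked. The 0 genes with an AHR KO peak became 3 with 50 kb, against 10.5% of protein-coding genes. The 25 other differentiation genes became 15 with the gene body (49.7%), 7 with the top 10% (22.9%) and 8 under 50% soft-masked (29.5%). At a limit of 75% soft-masked, 73.7% of the 19 peaks qualified and 62.3% of all wild type peaks, against 94.7% and 86.0% at 50%. Apart from these, counts stayed within 1.5 times the main count, the median score (5.32 to 5.78) moved by less than 1 SD of the 19 scores, and the shares with a CA repeat (73.7 to 78.9%) or an AHR word (0 to 10.5%, the latter for the core alone) stayed inside the exact 95% interval of the main share. No paired analysis was possible because the wild type list pools its 4 cultures into 1 value per peak and the AHR KO list rests on 1 library. For the same reason no culture could be left out, and which cultures carry a given peak was not analysed here. With 19 peaks, and 1 enteroendocrine peak among them, the shares have wide intervals and lineages were not compared.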

Other observations

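Beyond the 10 kb limit, with 50 kb on either side, each of the 10 genes had a wild type peak, as did 97.6% of all protein-coding genes, and 58 peaks were counted. The best scores then ran from 5.65 at Spdef to 12.3 at Muc2. A peak 12931 bp past Muc2 (chr7:141767624-141768394, score 8.80, with a CA repeat) overlapped the AHR KO peak nearest to that gene, which scored 6.25 in its own list. The wild type peak just outside the Neurod1 window (score 3.85) held 1 TNGCGTG word and no CA repeat. Slc26a2, a sulfate transporter of colonocytes, was counted as having no peak, while a wild type peak of score 11.95 lay 10209 bp away. An AHR KO peak of score 5.62 in its own list, 10205 bp away, spanned that wild type peak.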
